A study of Mus musculus with 30 samples.

Results

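The p53 target genes described here are Cdkn1a, Mdm2, Ccng1, Trp53inp1, Perp, Sesn2, Zmat3, Eda2r and Phlda3, together with Trp53, the gene of p53 itself. They were chosen by symbol, as well-known members of the p53 pathway, with earlier results of these data known. They make up 10 of the 22477 genes in the expression table. The 10 genes were found in the table and each reached 10 FPKM (fragments per kilobase of transcript, scaled to the number of mapped fragments) in at least 1 condition. Poly(A) RNA was sequenced from mouse secondary iPSCs, that is, iPSCs made by a second round of reprogramming from cells that already carry dox-inducible Oct4, Sox2, Klf4 and c-Myc (OSKM) transgenes. Cells of every condition carried these transgenes, GFP at the endogenous Nanog locus and a constitutive nuclear RFP, and a single line of this kind was described. The 30 samples form 15 conditions of 2 replicates. There were 7 timepoints, at 0, 24, 36, 48, 60, 72 and 96 h after 2i/LIF was withdrawn, with the 0 h cells still in 2i/LIF. The other 8 conditions were cells taken from the 0, 24, 48 and 96 h timepoints and moved to serum/LIF without dox (–dox) or with dox (+dox). Re-seeding lasted 48 h according to a figure legend of the study, which does not say on what support the RNA-seq cells grew. For its colony assay, the study plated cells on gelatin before withdrawal and re-seeded them on mouse embryonic fibroblasts.

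The deposited table holds 1 value per gene and condition, in which the authors combined both replicates. No replicate value, read count or depth was therefore at hand, and the differences below have neither error bars nor tests. A difference is counted when it reached 2-fold and the larger level was 1 FPKM or more, and beside such counts stands the percentage of all genes at 1 FPKM or more that did the same. Summed over all genes, the conditions held between 603278 and 832607 FPKM, and factors from median ratios across genes ran from 0.990 to 1.03, so values were compared as deposited. Between 2756 and 3980 genes were listed at 0 in the 4 conditions re-seeded from 0 and 24 h, against 4112 to 5090 in the other 11 conditions. The iPSC line was maintained on mouse embryonic fibroblast feeders, and the summed level of 10 fibroblast markers was 798 FPKM at 0 h and between 6.08 and 143.9 FPKM in the other 14 conditions. At 0 h, 9 naive pluripotency markers summed to 1123 FPKM, and at 96 h to 35.0 FPKM. The summed level of 6 formative pluripotency markers peaked at 854 FPKM at 48 h. Over the 15 conditions, 8 mesoderm and endoderm markers summed to at most 15.1 FPKM and 6 neurectoderm markers to at most 34.8 FPKM. Of the OSKM genes, whose reads cannot be divided here between transgene and endogenous copy, none was 2-fold higher with dox in the cells re-seeded from 0 or 24 h. From 48 h, Pou5f1, Sox2 and Klf4 were 2.80-fold, 2.02-fold and 3.12-fold higher with dox, from 96 h Pou5f1 was 3.78-fold higher, and Myc was lower with dox from all 4 times, so the names –dox and +dox are used as the labels give them.

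p53 is a transcription factor that is held low in unstressed cells, mostly because the ubiquitin ligase Mdm2 marks the protein for degradation. When DNA damage, oncogene activity or other stress stabilizes it, p53 binds paired copies of a short element near its targets and raises their transcription. The products arrest the cell cycle, promote apoptosis, repair DNA, alter metabolism or feed back on p53. In cells exposed to OSKM the pathway is known to restrain reprogramming, and loss of p53 or of p21 raises the yield of iPSC colonies. Since p53 is controlled largely as a protein, the level of Trp53 mRNA does not tell how active p53 is.

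Promoter windows from RefSeq (build GRCm38.p6, 250 bases before to 50 after a gene start) were given for 7 of the 10 genes, in 8 windows, and for none of Trp53inp1, Perp and Zmat3. They were searched for the p53 consensus decamer in tandem, which reads the same on both strands, with a spacer of 0 to 13 bases and at most 1 mismatch over the pair. Such a pair was found in 359 of 32851 windows over all genes (1.09%), and one without a mismatch in 24 windows (0.0731%). Among the 8 windows it was found in 2, the upstream window of Cdkn1a and the window of Ccng1. Both are printed 5′ to 3′ on the gene's strand because they carry the pair that was searched for, with the matching decamers in capitals.
Cdkn1a, chr17:29090729-29091028, plus strand: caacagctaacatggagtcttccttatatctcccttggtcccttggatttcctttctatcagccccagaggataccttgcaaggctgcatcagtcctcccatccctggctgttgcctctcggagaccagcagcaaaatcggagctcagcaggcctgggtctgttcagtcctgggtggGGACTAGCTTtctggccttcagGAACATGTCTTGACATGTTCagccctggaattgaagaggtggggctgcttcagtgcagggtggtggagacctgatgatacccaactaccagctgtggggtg
Ccng1, chr11:40755237-40755536, minus strand: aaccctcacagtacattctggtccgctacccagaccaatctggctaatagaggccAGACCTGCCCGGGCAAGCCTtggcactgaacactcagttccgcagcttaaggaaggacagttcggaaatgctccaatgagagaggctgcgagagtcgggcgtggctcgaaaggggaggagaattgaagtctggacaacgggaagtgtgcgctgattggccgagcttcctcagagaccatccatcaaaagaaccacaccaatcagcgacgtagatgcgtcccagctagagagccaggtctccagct
In Cdkn1a the capitals hold 2 overlapping matches. The pair GGACTAGCTT and GAACATGTCT, 12 bases apart, starts 73 bases before the gene start and has no mismatch, and GAACATGTCT directly followed by TGACATGTTC starts 51 bases before it and has 1 mismatch. In Ccng1, AGACCTGCCC directly followed by GGGCAAGCCT starts 195 bases before the gene start, with 1 mismatch. The window of the other Cdkn1a start, 2790 bases downstream, held no match, and neither did those of Mdm2, Sesn2, Eda2r, Phlda3 and Trp53, which says only that these letters are not in these windows. A match is a description of sequence and not a measured binding site.

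Trp53 (ENSMUSG00000059552.13, mm10 chr11:69580359-69591873, plus strand) was among the highest of the 10 genes in early cells, with its highest level at 24 h and a lower one at each later timepoint. Its levels at the 7 timepoints, in order, were 184, 226, 177, 159.7, 115, 96.2 and 79.0 FPKM. In re-seeded –dox cells it was 173 FPKM from 0 h, 160.2 from 24 h, 109.6 from 48 h and 58.8 from 96 h. With dox the 4 levels were 168, 166, 123 and 51.8 FPKM. The highest value, at 24 h, and the lowest, in +dox cells from 96 h, were 4.38-fold apart. Both re-seeded series followed the same order as the withdrawal series from 24 h on, and the –dox and +dox levels stayed within 1.14-fold of each other from all 4 times.

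Mdm2 and Ccng1 take part in negative feedback on p53. Mdm2 (ENSMUSG00000020184.15, chr10:117688875-117710758, minus strand) encodes the main ubiquitin ligase of p53 and had the smallest range of the 10 genes over all 15 conditions, at 2.06-fold. At the 7 timepoints its levels were 72.0, 66.9, 58.1, 61.7, 54.3, 49.3 and 44.6 FPKM, with the lowest at 96 h. From 0, 24, 48 and 96 h, –dox cells held 46.5, 52.8, 91.8 and 63.9 FPKM and +dox cells 82.4, 58.4, 78.4 and 58.0 FPKM. The highest Mdm2 level was thus in –dox cells from 48 h. Ccng1 (ENSMUSG00000020326.7, chr11:40748552-40755311, minus strand) encodes cyclin G1, which recruits a phosphatase that activates Mdm2. Along the time course its levels were 108, 94.6, 107, 118, 99.6, 84.3 and 87.2 FPKM, a 1.40-fold range that was the narrowest of the 10. The –dox levels were 45.2, 61.0, 113 and 106 FPKM and the +dox levels 79.1, 71.1, 92.2 and 131 FPKM. Ccng1 was lowest in –dox cells from 0 h, the condition in which Trp53inp1 and Phlda3 were lowest too.

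Cdkn1a (ENSMUSG00000023067.14, chr17:29090976-29100727, plus strand) encodes p21, the inhibitor of cyclin-dependent kinases through which p53 arrests the cell cycle. Its 0 h level was 185 FPKM, and the 6 later ones 24.9, 31.2, 27.1, 33.7, 24.5 and 47.5 FPKM. Without dox, re-seeded cells held 26.0 FPKM from 0 h, 16.5 from 24 h, 64.4 from 48 h and 55.3 from 96 h. With dox they held 66.4, 22.0, 55.7 and 139.5 FPKM. The 0 h level was above all others, the +dox level from 96 h came next, and the lowest level, in –dox cells from 24 h, was 11.2-fold below the highest. After 0 h the timepoints stayed within 1.94-fold of each other. A predicted transcript of the opposite strand, AC167363.2, overlaps 273 of the 3553 exonic bases of Cdkn1a and is not in the table.

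**Figure D1:**
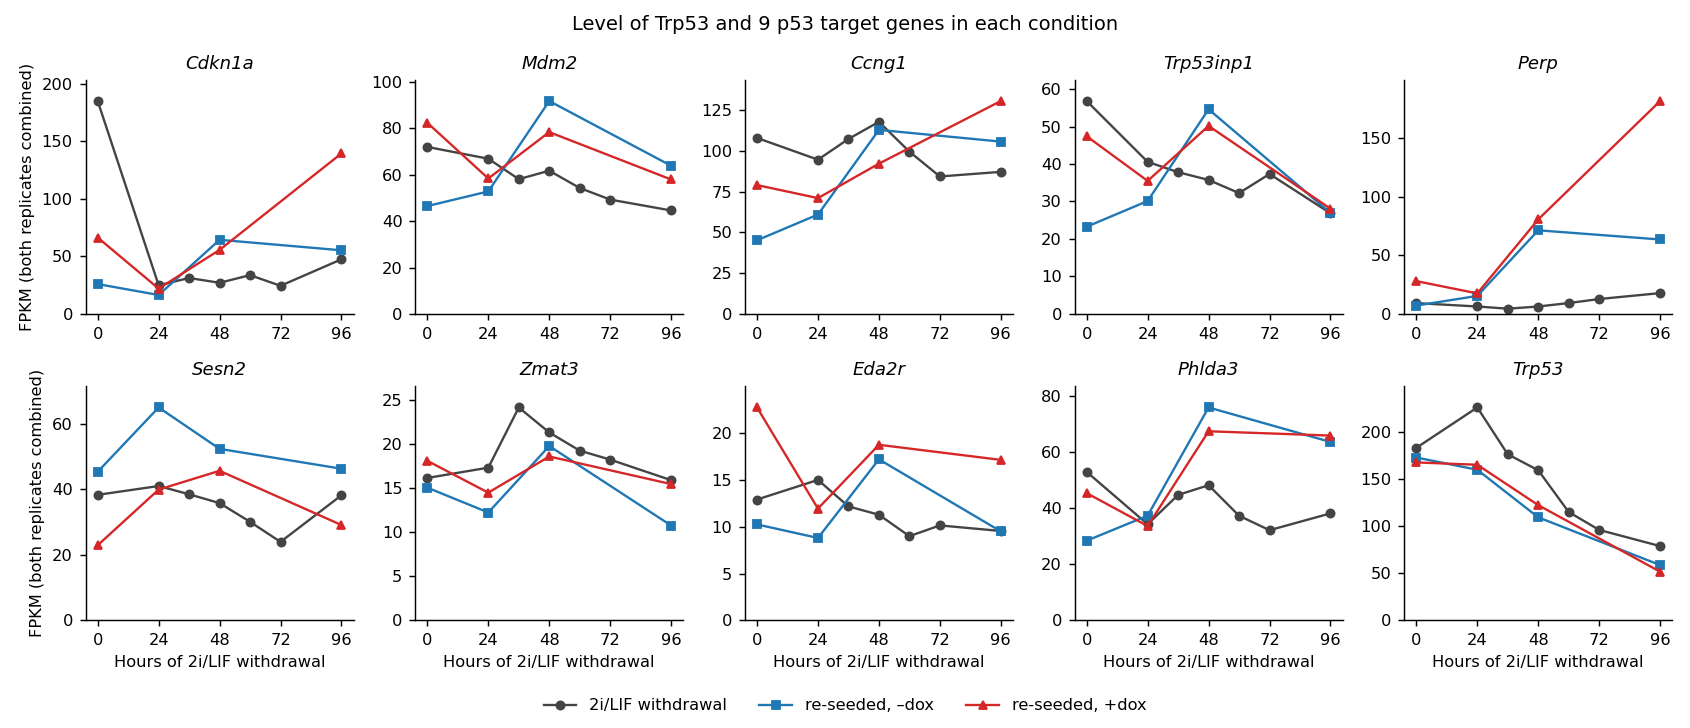
Level of each of the 10 genes in FPKM (y axis, linear, from 0, with its own scale in each panel) against the hours of 2i/LIF withdrawal (x axis), for the withdrawal timepoints (grey circles) and for cells re-seeded without dox (blue squares) or with dox (red triangles). Each point is 1 value that combines both replicates, so there are no error bars. Cdkn1a was 185 FPKM at 0 h and at most 47.5 FPKM at later timepoints, Perp reached 182 FPKM in +dox cells from 96 h, and Trp53 was lowest from 96 h in all 3 series.

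Perp, Trp53inp1, Phlda3 and Eda2r are tied to cell death or survival. Perp (ENSMUSG00000019851.8, chr10:18845020-18857073, plus strand) encodes a membrane protein that acts in apoptosis and, in epithelia under the related factor p63, in desmosomes. Its levels were 9.25, 6.37, 4.48, 6.35, 9.30, 12.7 and 17.8 FPKM along the time course. Re-seeded –dox cells held 7.14, 15.4, 71.3 and 63.5 FPKM, and +dox cells 28.0, 17.5, 80.7 and 182 FPKM. Perp had the widest range of the 10 genes, 40.5-fold, between its 36 h level and that of +dox cells from 96 h. It was the lowest of the 10 at each of the first 4 timepoints and the highest of the 10 in the last +dox condition. Trp63, the gene of p63, was at 0.0785 FPKM at 0 h and reached 1 FPKM only in –dox cells from 96 h (1.73 FPKM).

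Trp53inp1 (ENSMUSG00000028211.11, chr4:11156431-11174379, plus strand) encodes a nuclear protein that favours phosphorylation of p53 and cell death. It was at 56.8, 40.6, 37.8, 35.8, 32.2, 37.3 and 26.9 FPKM along the time course. The –dox levels were 23.3, 30.1, 54.6 and 27.0 FPKM and the +dox levels 47.4, 35.5, 50.2 and 28.1 FPKM. Levels were high at 0 h and from 48 h in both re-seeded series, and lowest in –dox cells from 0 h. Phlda3 (ENSMUSG00000041801.5, chr1:135766119-135769136, plus strand) encodes a pleckstrin-homology protein that blocks Akt signalling. Its time course read 52.9, 34.2, 44.7, 48.2, 37.3, 32.1 and 38.1 FPKM. In –dox cells it was at 28.4, 37.3, 75.9 and 63.6 FPKM, and in +dox cells at 45.3, 33.6, 67.4 and 65.8 FPKM. The 4 values of cells re-seeded from 48 and 96 h were above each of the other 11. Eda2r (ENSMUSG00000034457.10, chrX:97333840-97377216, minus strand) encodes a receptor of the tumour necrosis factor family and was among the lowest of the 10 genes, at 12.9, 15.0, 12.2, 11.3, 8.98, 10.1 and 9.54 FPKM along the time course. Re-seeded levels of Eda2r were 10.2, 8.79, 17.2 and 9.50 FPKM without dox and 22.7, 11.9, 18.7 and 17.1 FPKM with dox. Its highest level was in +dox cells from 0 h.

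Sesn2 and Zmat3 act on metabolism and RNA. Sesn2 (ENSMUSG00000028893.8, chr4:132492032-132510501, minus strand) encodes sestrin 2, a leucine sensor that restrains mTORC1 and that the ATF4 stress response also induces. Its timepoints read 38.4, 41.0, 38.5, 35.8, 30.1, 24.0 and 38.2 FPKM. The –dox levels, 45.4, 65.0, 52.4 and 46.3 FPKM, were each above the matched +dox levels, 23.0, 40.0, 45.7 and 29.1 FPKM. Sesn2 was therefore lowest in +dox cells from 0 h, where Eda2r was highest. Zmat3 (ENSMUSG00000027663.12, chr3:32334792-32366014, minus strand) encodes a zinc finger protein that binds RNA and controls splicing. It was at 16.2, 17.3, 24.2, 21.3, 19.3, 18.3 and 15.9 FPKM along the time course, with the highest level at 36 h. Without dox it was at 15.1, 12.2, 19.8 and 10.8 FPKM, and with dox at 18.1, 14.5, 18.6 and 15.5 FPKM. The 15 Zmat3 levels spanned 2.24-fold.

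Over all 15 conditions the median range of the 10 genes, highest over lowest, was 2.75-fold, against 2.86-fold over the 9067 genes that reached 10 FPKM. Over the 7 timepoints the medians were 1.69-fold and 1.98-fold. Trp53inp1, Cdkn1a, Perp and Trp53, 4 of the 10, were at least 2-fold apart between some pair of timepoints, as were 60.7% of the 14091 genes with 1 FPKM at a timepoint. The 6 others, Mdm2, Ccng1, Sesn2, Zmat3, Eda2r and Phlda3, had ranges from 1.40-fold to 1.71-fold over the 7 timepoints. Without the 0 h timepoint the count was 2, Perp and Trp53, against 51.7% of all genes.

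What happened to these genes as pluripotency was lost was first read from each timepoint against 0 h. At 24 h Cdkn1a was 7.42-fold lower than at 0 h and was the 1 gene of the 10 past 2-fold, in a comparison where 14.3% of all genes were 2-fold lower. None of the 10 was 2-fold higher, against 8.64% of all genes. At 48 h Cdkn1a was again the 1 gene that was lower (6.83-fold; 17.0% of all genes) and none was higher (12.1%). At 96 h Cdkn1a (3.89-fold), Trp53 (2.32-fold) and Trp53inp1 (2.12-fold) were lower, 3 of 10 against 16.4% of all genes, and none was higher, against 16.8%. Perp was the 1 gene of the 10 with a 96 h level above its 0 h level, by 1.92-fold, where 48.7% of all genes were above theirs. The median log2 ratios of the 10 genes at 24, 48 and 96 h were −0.15, −0.20 and −0.45, with −0.01, −0.02 and −0.02 over all genes. All of these comparisons share the 0 h condition. Set against 24 h in its place, none of the 10 was past 2-fold at 48 h, where 8.59% of all genes were higher and 8.21% lower. At 96 h Trp53 was 2.87-fold lower (16.3% of all genes), Perp 2.79-fold higher (20.5%) and Cdkn1a 1.91-fold higher.

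The Cdkn1a level at 0 h stood beside the highest fibroblast signal. Col1a1, the main chain of collagen I in fibroblasts, was at 229 FPKM at 0 h, and 9 of the 10 fibroblast markers were at least 2-fold lower at 24 h, with Thy1 the exception. Of the 10 markers, 8 had their highest level of all 15 conditions at 0 h. The summed level at the later timepoints was 74.2, 33.8, 40.6, 21.5, 21.2 and 28.3 FPKM. In –dox cells it was 6.08 FPKM from 0 h, 10.9 from 24 h, 16.8 from 48 h and 143.9 from 96 h, and in +dox cells 10.5, 16.4, 16.1 and 24.1 FPKM. Lum and Twist2 were listed at 0 in –dox cells from 0 h, and Lum in +dox cells from 48 h. The second highest Cdkn1a level, 139.5 FPKM in +dox cells from 96 h, was measured where the markers summed to 24.1 FPKM, and the second highest marker sum, in –dox cells from 96 h, where Cdkn1a was at 55.3 FPKM. The part of fibroblast RNA in the 0 h level of Cdkn1a was not tested, and in bulk RNA a different number of cells of a type cannot be told apart from a different level per cell.

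**Figure D2:**
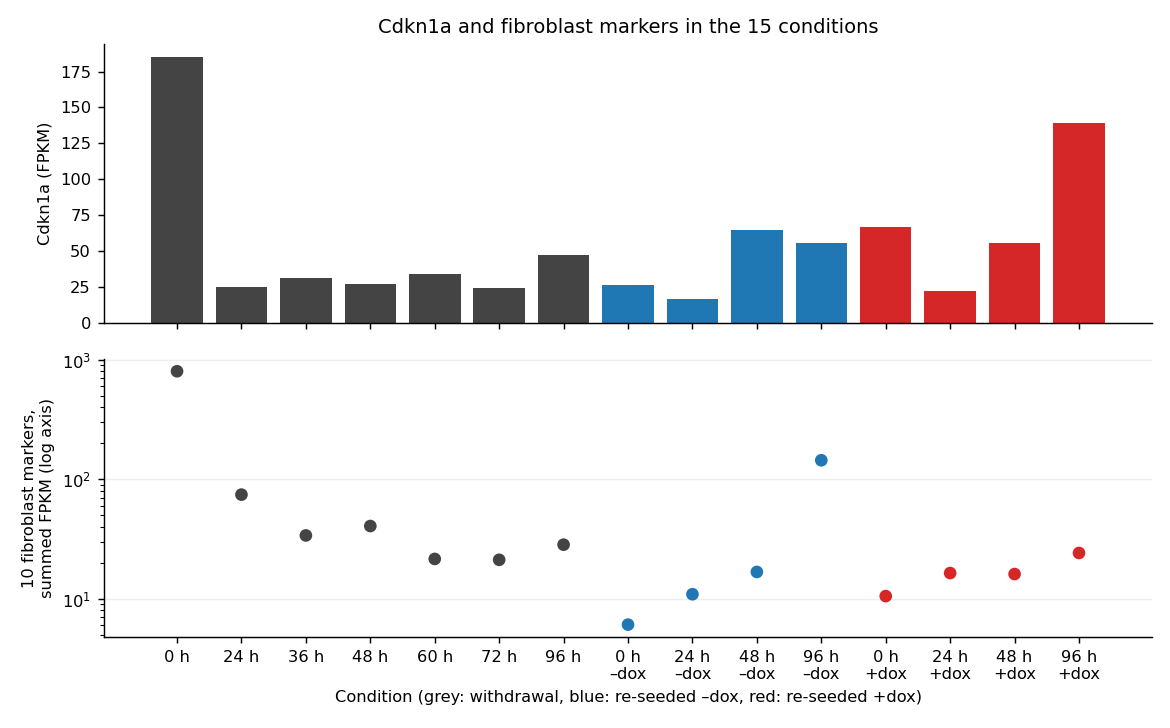
Cdkn1a in FPKM (upper panel, bars from 0) and the summed FPKM of 10 fibroblast markers (lower panel, log axis) in the 15 conditions, with withdrawal timepoints in grey, –dox in blue and +dox in red. Each value combines both replicates. Both measures were highest at 0 h, at 185 and 798 FPKM, while the second highest values, 139.5 FPKM of Cdkn1a and 143.9 FPKM of markers, were in different conditions.

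The move to serum/LIF without dox was read from –dox cells against the timepoint at which they had been re-seeded. In this comparison medium, re-plating, the added time in culture and any feeder cells change together. The summed fibroblast markers went from 798 to 6.08 FPKM from 0 h and from 74.2 to 10.9 FPKM from 24 h. From 48 h they went from 40.6 to 16.8 FPKM and from 96 h from 28.3 to 143.9 FPKM, and their part was not tested. From 0 h, Cdkn1a (7.13-fold), Trp53inp1 (2.44-fold) and Ccng1 (2.39-fold) were lower after re-seeding, 3 of 10 where 10.1% of all genes were lower. None was higher, against 12.0% of all genes. Of the 10 ratios, 9 were below 1, as were 50.3% of those of all genes, and the exception was Sesn2 at 1.18-fold higher. From 24 h, Perp was 2.42-fold higher, 1 of 10 against 14.9% of all genes, and none was lower, against 10.6%. From 48 h, Perp (11.2-fold) and Cdkn1a (2.38-fold) were higher, 2 of 10 against 15.3%, and none was lower, against 11.5%. Mdm2, Trp53inp1, Sesn2, Eda2r and Phlda3 stood between 1.46-fold and 1.58-fold higher there. From 96 h, Perp was 3.57-fold higher, 1 of 10 against 12.4%, and none was lower, against 11.2%. The median log2 ratio was −0.50 from 0 h, −0.46 from 24 h, 0.59 from 48 h and 0.25 from 96 h, against −0.01, −0.05, −0.01 and 0.01 over all genes. Cells from 0 and 24 h thus had medians below 0 and cells from 48 and 96 h above, and the difference between the times was not tested. The number of genes listed at 0 parted these –dox conditions in the same way. It was 3282 and 2756 from 0 and 24 h, and 4734 and 4369 from 48 and 96 h, and its part was not tested.

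**Figure D3:**
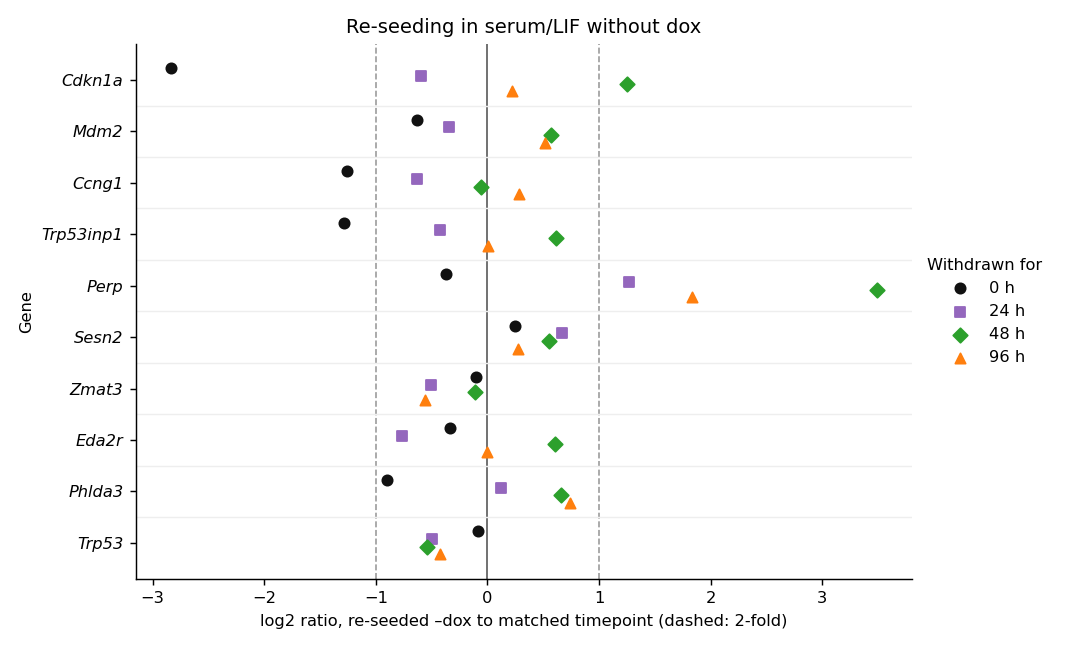
Log2 ratio of the re-seeded –dox level to the level at the matched timepoint (x axis) for each of the 10 genes (y axis), with 1 marker for each time of withdrawal and dashed lines at 2-fold. Cdkn1a ran from −2.83 from 0 h to 1.25 from 48 h, and Perp was past 2-fold from 24, 48 and 96 h.

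The effect of dox was read from +dox against –dox cells re-seeded at the same time. From 0 h, the measured levels of Sox2 (1.84-fold), Myc (1.31-fold) and Klf4 (1.27-fold) were lower and that of Pou5f1 1.18-fold higher with dox, and these values give no check of OSKM induction there. From 0 h, Perp (3.92-fold), Cdkn1a (2.56-fold), Eda2r (2.22-fold) and Trp53inp1 (2.04-fold) were higher with dox, 4 of 10 where 3.62% of all genes were. None was 2-fold lower, against 5.61% of all genes, although Sesn2 was 1.98-fold lower. These 2-fold calls are close for Trp53inp1 and Sesn2: after scaling by median-ratio factors, Trp53inp1 stood just under 2-fold higher and Sesn2 at 2.01-fold lower, which leaves 3 of the 10 genes higher and 1 lower. Mdm2 was 1.77-fold, Ccng1 1.75-fold and Phlda3 1.60-fold higher, and Trp53 was 1.03-fold lower. From 24 h none of the 10 was past 2-fold in either direction, where 2.87% of all genes were higher and 3.40% lower. From 48 h none was either, against 6.56% and 6.46%, and each of the 10 pairs lay within 1.22-fold. From 96 h, Perp (2.86-fold) and Cdkn1a (2.52-fold) were higher with dox, 2 of 10 against 6.67% of all genes, and none was lower, against 11.1%. Eda2r stood at 1.80-fold higher and Sesn2 at 1.59-fold lower from 96 h. The median log2 ratio of the 10 genes was 0.82 from 0 h, 0.20 from 24 h, −0.15 from 48 h and 0.18 from 96 h, with 0.05, 0.02, −0.02 and −0.01 over all genes.

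Perp and Eda2r were higher with dox from all 4 times, 2 of 10 where 16.6% of 11259 genes were. Sesn2 was lower with dox from all 4 times, 1 of 10 where 13.3% were. The other 7 had both directions among the 4 times. In the cells from 0 h the fibroblast sum was 6.08 FPKM without and 10.5 FPKM with dox, and the naive pluripotency sum 894 and 747 FPKM. From 96 h the fibroblast sum was 143.9 FPKM without and 24.1 FPKM with dox. The 0 h –dox value enters both the re-seeding and the dox comparison, and it was the lowest of the 15 for Ccng1, Trp53inp1 and Phlda3.

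**Figure D4:**
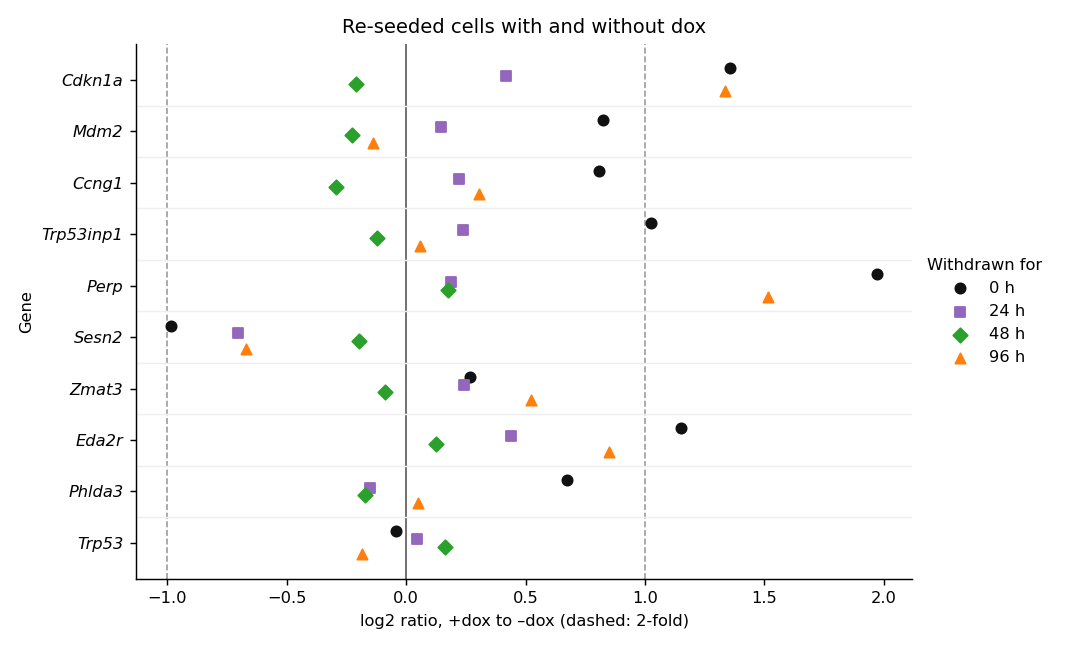
Log2 ratio of the +dox to the –dox level (x axis) for each of the 10 genes (y axis), with 1 marker for each time of withdrawal before re-seeding and dashed lines at 2-fold. Cells from 0 h (black) had 4 genes past 2-fold higher (3 after median-ratio scaling) and cells from 96 h (orange) had 2, while the 10 ratios from 48 h (green) lay within 1.22-fold.

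A list of 40 other p53 target genes gave a wider view of the pathway, and 39 of them were in the table. At 24, 48 and 96 h of withdrawal 2, 2 and 3 of the 39 were at least 2-fold higher than at 0 h (8.64%, 12.1% and 16.8% of all genes), and 8, 7 and 10 were lower (14.3%, 17.0% and 16.4%). Their median log2 ratios were −0.31, −0.26 and −0.45. After re-seeding without dox from 0, 24, 48 and 96 h, 2, 3, 5 and 4 were higher (12.0%, 14.9%, 15.3% and 12.4% of all genes) and 9, 6, 2 and 4 lower (10.1%, 10.6%, 11.5% and 11.2%) than at the matched timepoint. With dox against without, 2, 3, 2 and 6 were higher (3.62%, 2.87%, 6.56% and 6.67% of all genes) and 1, 3, 4 and 1 lower (5.61%, 3.40%, 6.46% and 11.1%). The median log2 ratio to –dox was 0.40 from 0 h and 0.43 from 96 h, with 32 and 28 of the 39 ratios above 1 (54.3% and 49.1% of all genes), and 0.32 and 0.07 from 24 and 48 h. From 0 h the genes past 2-fold with dox were Plk2, a polo-like kinase, at 2.42-fold higher, Rps27l, a ribosomal protein paralog, at 2.02-fold higher, and Epha2 at 2.21-fold lower. Plk2 and Rps27l were chosen after their values were seen.

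Thbs1, Epha2 and Ephx1 had the widest ranges among those of the 39 that reached 10 FPKM. Thbs1, the matrix protein thrombospondin 1, ran from 2.72 FPKM in –dox cells from 0 h to 85.7 FPKM in –dox cells from 48 h, with 41.6 FPKM at 0 h and 79.9 FPKM in +dox cells from 96 h. Without dox it was lower from 0 h than from 48 h, as were 9 of the 10 genes, all but Trp53, and 49.0% of all genes. These –dox conditions also differed in the number of genes listed at 0, with 3282 from 0 h and 4734 from 48 h. Epha2, an ephrin receptor, ran from 1.76 FPKM in –dox cells from 96 h to 44.1 FPKM in –dox cells from 24 h. Ephx1, the microsomal epoxide hydrolase, was at 25.6 FPKM at 0 h and 1.86 FPKM in –dox cells from 96 h, where +dox cells held 13.2 FPKM.

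Among 15 regulators and relatives of p53, 14 reached 1 FPKM in each comparison, though not the same 14 in all. At most 2 were 2-fold higher, and at most 2 were 2-fold lower, in any comparison, where between 2.87% and 17.0% of all genes were. Cdkn2a, whose ARF product blocks Mdm2 and whose other product, p16, inhibits cyclin-dependent kinases, was highest at 0 h (54.5 FPKM) and lowest in +dox cells from 48 h (8.47 FPKM). Its FPKM value does not separate the products. Chek2, a kinase of the DNA damage checkpoint, ran from 3.33 FPKM in –dox cells from 96 h to 19.4 FPKM in +dox cells from 24 h. Mdm4, a relative of Mdm2 that restrains p53, was highest in +dox cells from 0 h (82.8 FPKM, against 57.0 FPKM without dox) and lowest at 96 h (17.9 FPKM).

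Genes that p53 and p21 are known to lower, 12 genes of mitosis and DNA replication such as Ccnb1, Cdk1 and Plk1, had medians of the other sign in the cells from 0 h. In –dox cells from 0 h all 12 were above their 0 h level, where 49.7% of all genes were, with a median log2 ratio of 0.50 against −0.50 for Trp53 and the 9 targets. The summed fibroblast markers went from 798 to 6.08 FPKM in the same comparison, and their part in it was not tested. With dox from 0 h, 11 of the 12 were below their –dox level, as were 45.7% of all genes (median −0.26, against 0.82 for Trp53 and the 9 targets). From 96 h, however, 11 of the 12 were above their –dox level, as were 49.1% of all genes (median 0.68), and 3 were at least 2-fold higher (6.67% of all genes), while Cdkn1a was 2.52-fold higher too. The fibroblast sum there was 143.9 FPKM without and 24.1 FPKM with dox, and its part was not tested. In –dox cells from 96 h, 10 of the 12 were below the matched timepoint, as were 49.5% of all genes (median −0.64). From 24 and 48 h the dox medians were −0.01 and 0.15. Along the time course the medians were 0.19, 0.18 and 0.22 at 24, 48 and 96 h.

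**Figure D5:**
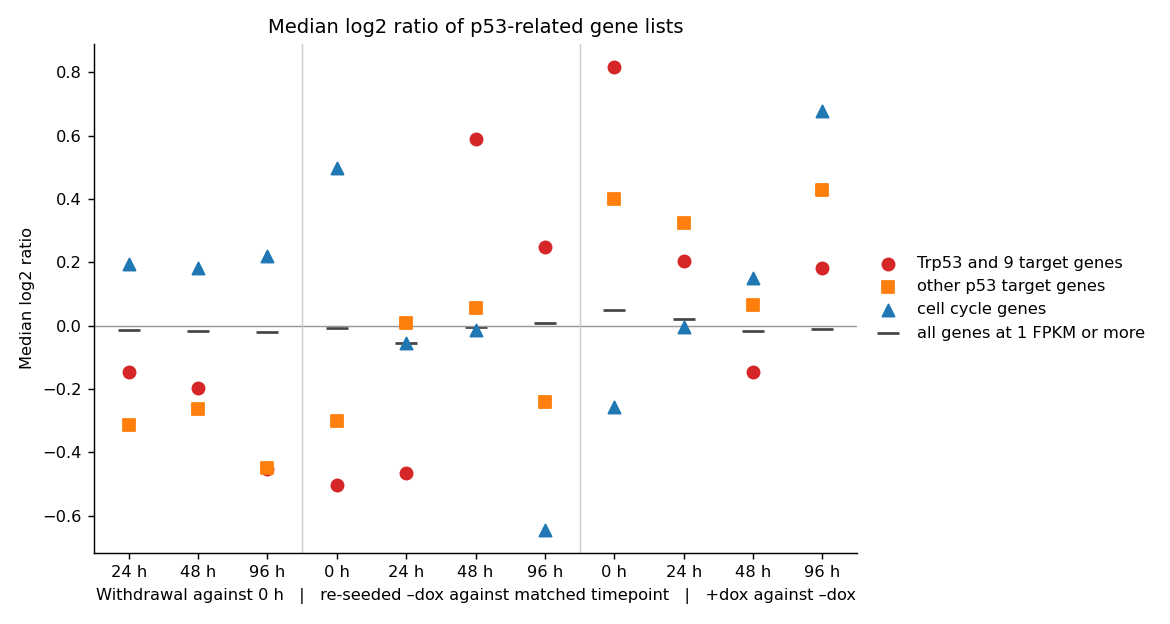
Median log2 ratio (y axis) of Trp53 and the 9 targets (red circles), of 39 other p53 target genes (orange squares), of 12 cell cycle genes (blue triangles) and of all genes at 1 FPKM or more (dashes), for the 11 comparisons named under the x axis. The medians of all genes stay between −0.05 and 0.05, while the 10 genes reach 0.82 and the 39 other targets 0.40 with dox from 0 h, where the cell cycle genes are at −0.26.

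Across the 15 conditions, log2(FPKM + 1) of the 9 targets gave 36 pairs with Pearson correlations from −0.38 to 0.82 and a median of 0.37, and 29 of the pairs were above 0. Mdm2 and Trp53inp1 had the highest. No median or share was computed over pairs of all genes. Whether the 9 targets were more alike than other genes is therefore not known here. The 9 pairs with Trp53 ran from −0.72 to 0.39, with a median of 0.10. Of 9057 other genes that reached 10 FPKM, those most like Cdkn1a were Npc2 (r = 0.91), Sec23a (r = 0.91) and Ugcg (r = 0.90), and those most like Mdm2 were Ndufb6 (r = 0.84), Gnb2l1 (r = 0.84) and Cox4i1 (r = 0.83). Trp53 was most like Rbmxl2 (r = 0.99), Zfp808 (r = 0.98) and 2410141K09Rik (r = 0.97). These correlations describe 15 conditions that share 1 cell line and timepoints in series, and they carry no p-value.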

How the data were processed

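Per the labels and the paper's methods, reads of poly(A) RNA were mapped by the authors to mm10 with TopHat 2.0.14 and quantified on Gencode M4 with Cuffquant and Cuffdiff of Cufflinks 2.2.1. The deposited FPKM values are 1 per gene and condition, with both replicates combined by the authors, and the library normalization behind them is not given in the sources used here. The table also holds the authors' calls of dynamic groups and of genes responsive to dox, which were not used. No replicate values or counts were at hand, so depth is unknown, and no test, interval or leave-one-out was possible. How far replicates differ is therefore not measured here, and neither is whether they came from separate cultures.

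Columns were tied to groups by their names. Ratios were plain FPKM ratios, and a difference was counted at 2-fold with 1 FPKM in the higher value. Medians are of log2 ratios without a pseudocount, over genes with 1 FPKM in the higher value, with genes at 0 in either condition left out. Counts of list genes with a ratio above or below 1 had no minimum level, while the shares of all genes beside them did. Alternatives covered the fold, the minimum level, an added 0.1 or 1 FPKM, median-ratio factors over 14518 genes and the reference timepoint. The 10 genes and the lists, written from general knowledge, were chosen with earlier results of these data known. Named were the 10 genes, the 3 genes of the other-target and of the regulator list with the largest ratio of highest to lowest among those reaching 10 FPKM, the summed marker lists, and the 3 genes most like Cdkn1a, Mdm2 and Trp53 by Pearson's r. Other genes were named after their values were seen, and these include the OSKM genes, Col1a1, Thy1, Lum, Twist2 and Trp63. Positions are from Gencode M21 on mm10 and promoters from RefSeq. Of the other targets, Mir34a was not found, and Tigar was matched through a RefSeq synonym. Rows of 4 genes share symbols turned into dates and were left out of look-ups by name. Python 3.11.15, numpy 2.4.6, pandas 2.3.3 and matplotlib 3.10.9 were used, and the counting of differences was tested on simulated data.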

Additional observations from a re-analysis of the deposited data

Results flagged for a closer look

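Cdkn1a was flagged because its level moved in opposite directions on re-seeding without dox, by 2-fold or more each time. From 0 h its log2 ratio to the matched timepoint was −2.83 (185 FPKM before and 26.0 FPKM after re-seeding), and from 48 h it was 1.25 (27.1 and 64.4 FPKM). The difference between these ratios was not tested, since the table has no replicate values.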

How the results depend on the processing

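No paired analysis was possible because each value combines both replicates of a condition, and for the same reason leaving out a replicate was not run. Under 0.1 or 1 FPKM added and under median-ratio factors, the 11 medians of the 10 genes stayed within 0.1, as did 327 of 330 single log2 ratios. The exceptions were Perp with 1 FPKM added, at 1.15 from 24 h and 3.30 from 48 h against the matched timepoint and 1.83 with dox from 0 h. No minimum, 1 FPKM in both values, 5 FPKM in the higher value and median-ratio factors left each count of the 10 genes within 1.5 times. Under the first 3 of these no gene's call differed. With median-ratio factors Trp53inp1 dropped just under 2-fold and Sesn2 passed it (log2 ratio −1.01) with dox from 0 h, so that 3 genes were higher and 1 lower in place of 4 and 0, and with 1 FPKM added Trp53inp1 was under 2-fold too (log2 ratio 0.996). No ratio past 2-fold changed sign. Among the others, Eda2r re-seeded without dox from 96 h went from −0.0064 to 0.031 under median-ratio factors.

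At 1.5-fold, 2, 2 and 5 of the 10 genes differed from 0 h at 24, 48 and 96 h, 5, 5, 5 and 2 on re-seeding from 0, 24, 48 and 96 h, and 8, 1 and 4 with dox from 0, 24 and 96 h. Of all genes, 41.3%, 47.1% and 50.6%, then 41.2%, 44.8%, 46.8% and 43.5%, then 24.7%, 17.3% and 34.6% differed so. Counts of the 39 other targets were then 16 and 18 at 24 and 48 h, 21, 18, 18 and 15 on re-seeding, and 14, 13 and 15 with dox from 0, 24 and 96 h. At 3-fold, 1 of the 10 genes differed at 96 h, 1, 0 and 1 on re-seeding from 0, 24 and 48 h, and 1 and 0 with dox from 0 and 96 h. Of all genes, 21.4%, then 11.3%, 13.8% and 14%, then 2.96% and 8.72% did. The other targets then numbered 3 and 8 at 24 and 96 h, 6, 3 and 4 on re-seeding from 0, 24 and 96 h, and 0, 0, 1 and 2 with dox, with 12.2% of all genes at 24 h, 12.7% on re-seeding from 96 h and 1.84% and 5.87% with dox from 24 and 48 h in the comparisons not yet given.

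Leaving out 0 h was chosen after seeing the data. Between any pair of later timepoints 2 of the 10 genes were 2-fold apart in place of 4, against 51.7% of all genes. Against 24 h, 0 of the 10 genes differed at 48 h, with a median log2 ratio of −0.060, and at 96 h the median was −0.12 in place of −0.45.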
